A study of Mus musculus with 2 samples.

Results

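Ankrd1, Ankrd2, Csrp3, Trim63, Fbxo32, Sln and Pdk4 are genes of striated muscle that are known for their response to stretch, disuse, fasting or loss of innervation. They are 7 of the 19465 genes counted in 2 sections of mouse skin, were found by their symbols, and each symbol belonged to 1 row of the count table. They were picked from earlier results on the UMI counts of these sections, and their difference between the sections is therefore given as a description without a test.

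Spatial transcriptomics was performed on formalin-fixed, paraffin-embedded back skin of 1 *S1pr2fl/fl* mouse and 1 *S1pr2fl/fl K14-Cre* mouse. Both were 8 weeks of age and received 62.5 mg of 5% imiquimod (IMQ) cream daily for 7 days on depilated skin, which causes psoriasis-like inflammation, and both carried the floxed *S1pr2* alleles. In the *S1pr2fl/fl K14-Cre* mouse the keratin 14 promoter drives Cre in keratinocytes and not in muscle fibers, and no untreated section and no Cre control without floxed alleles is analysed here. Each genotype was 1 section of 10 μm, so genotype, mouse, section and position within the back skin cannot be told apart, and no p-value can be given.

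Mouse back skin carries a thin sheet of striated muscle, the panniculus carnosus, beneath the fat. In muscle fibers, the ankyrin repeat proteins and the LIM protein encoded by *Csrp3* are found at the sarcomere, and their transcripts are known to respond to stretch and injury. *Trim63* (MuRF1) and *Fbxo32* (atrogin-1) encode ubiquitin ligases that mark muscle proteins for breakdown in atrophy, *Sln* encodes sarcolipin, a small inhibitor of the calcium pump, and *Pdk4* encodes a kinase that keeps pyruvate out of the mitochondrial oxidation of glucose during fasting.

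A spot of the array was called muscle-rich when it held at least 500 unique molecular identifiers (UMIs, each the tag of 1 captured molecule) and at least 5% of them came from 15 genes of skeletal muscle that include neither these 7 genes nor *Acta1*. This applied to 228 of the 1282 *S1pr2fl/fl* spots and 355 of the 981 *S1pr2fl/fl K14-Cre* spots, with 869734 and 1106797 UMIs and medians of 3465.5 and 2461 per spot. All 15 muscle genes were at least 2-fold higher in these spots than in the other spots of both sections, by between 8.73-fold and 19.3-fold. The spots were chosen by the UMIs of these same genes, so this is no check of the choice. A spot covers several cells, and fewer muscle fibers in a spot and less RNA per fiber cannot be told apart. The muscle-rich spots of *S1pr2fl/fl* held more RNA of 10 keratinocyte genes, 1.35% of UMIs against 0.165%, with 9 of the 9 that had at least 30 UMIs at least 2-fold higher, and more of the hemoglobin and heme synthesis genes, 0.151% against 0.0416%. Those of *S1pr2fl/fl K14-Cre* held more RNA of 7 adipocyte genes, 1.21% against 0.546%, and of the developmental muscle genes, 0.0638% against 0.00839%. They also held more RNA of 6 genes of glycolytic fibers (*Myh4*, *Pvalb*, *Actn3*, *Mybpc2*, *Pfkm*, *Eno3*), 5.07% against 2.21%. The part of these differences in the results that follow was not tested, except where values without the spots are given. *S1pr2* itself had 22 UMIs in the muscle-rich spots of each section, and in keratinocyte-rich spots it had 37 UMIs in 338 spots of *S1pr2fl/fl* and 0 in 70 spots of *S1pr2fl/fl K14-Cre*. The probe position relative to the deleted part is not given in the sources used here, so this is no check of the deletion.

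Levels are given as UMIs per 1000 UMIs of *Acta1*, the actin of skeletal muscle fibers, over all muscle-rich spots of a section, with exact 95% intervals that cover counting error only. Because the counts come from probes whose number per gene is not given in the sources used here, levels of different genes are not on 1 scale and are compared only between sections or places. *Acta1* was not equal in the sections, with 24265 UMIs in *S1pr2fl/fl* and 46491 in *S1pr2fl/fl K14-Cre*, or 27899 and 42005 UMIs per 1000000 (CPM). Its CPM was 1.51-fold higher in *S1pr2fl/fl K14-Cre*, a log2 ratio of 0.59, so every log2 ratio per *Acta1* lies 0.59 below the same ratio in CPM. Both are given where the scale decides the direction.

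Per *Acta1*, *Ankrd1* was 8.07-fold higher and *Pdk4* 10.4-fold lower in the muscle of *S1pr2fl/fl K14-Cre* than in that of *S1pr2fl/fl*. *Fbxo32* was 3.12-fold lower. *Ankrd2*, *Csrp3* and *Trim63* were lower by between 1.45-fold and 1.88-fold, and *Sln* had an interval that included no difference. Thus 1 of the 7 genes was at least 2-fold higher and 2 were at least 2-fold lower, beside 0.486% and 27.3% of the 3705 genes with at least 100 UMIs in the muscle-rich spots. By CPM 1 was at least 2-fold higher and 2 were at least 2-fold lower, beside 2.73% and 7.42% of the same genes.

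**Figure D1:**
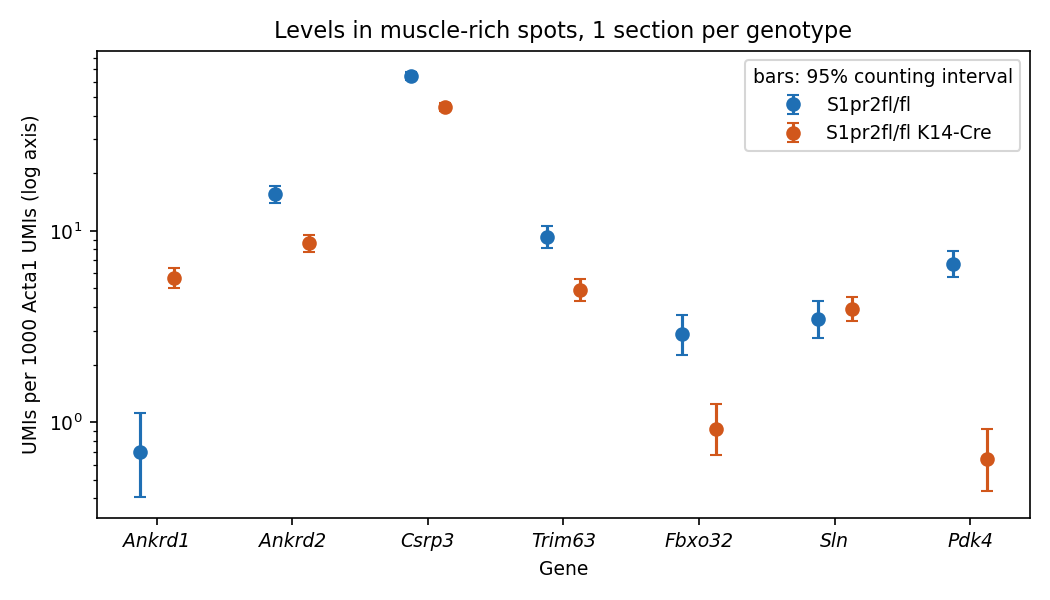
Level of each of the 7 genes in muscle-rich spots, in UMIs per 1000 *Acta1* UMIs on a log axis. Points are 1 section of *S1pr2fl/fl* (blue, 228 spots) and 1 section of *S1pr2fl/fl K14-Cre* (orange, 355 spots), and bars are exact Poisson 95% counting intervals of the gene's UMIs. *Ankrd1* lies higher in *S1pr2fl/fl K14-Cre* (5.66 against 0.701), *Pdk4* lies lower (0.645 against 6.72), and the intervals of *Sln* overlap.

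The median gene of the muscle-rich spots had a log2 ratio per *Acta1* of -0.66, since *Acta1* itself was higher in *S1pr2fl/fl K14-Cre*. For 207 genes that were at least 4-fold higher in muscle-rich than in other spots of both sections (muscle-enriched genes, a limit chosen after the data had been seen), the median was -0.46. *Ankrd2*, *Csrp3*, *Trim63* and *Sln* belonged to these 207 genes. Of the 207, 47 were lower in *S1pr2fl/fl K14-Cre* than *Ankrd2* by this ratio, 44 lower than *Trim63* and 90 lower than *Csrp3*, so these 3 genes lay within the spread of other muscle genes. *Ankrd1* had the 3rd highest ratio of the 3705 genes, after *Myl4* and *Myh8*, which encode developmental forms of myosin, and it was above all 207 muscle-enriched genes. *Pdk4* was below all 207, and had the 48th lowest ratio of the 3705. *Fbxo32* had 3 of the 207 below it. The 4-fold limit had to be met in both sections, so a gene low in the muscle of 1 section tends to fall outside the 207. In *S1pr2fl/fl* and *S1pr2fl/fl K14-Cre*, *Ankrd1* was 3.62-fold and 5.23-fold higher in muscle-rich spots, *Fbxo32* 4.47-fold and 1.73-fold, and *Pdk4* 8.68-fold and 1.81-fold. Each missed the limit in 1 section only, and the place of these genes against the 207 is in part set by it. The ranks among the 3705 genes depend in turn on their minimum count, which is taken over both sections together. *Ankrd1* (17 and 263 UMIs) and *Pdk4* (163 and 30) met it mainly through the section where each was higher. *Tnnt2*, with 3 and 63 UMIs, fell below it and had a log2 ratio of 3.45, above the 3.01 of *Ankrd1*. These genes were also picked from the same counts, so their ranks are a description only. In the 71 and 354 muscle-rich spots with under 1% keratinocyte UMIs, the log2 ratio was 3.38 for *Ankrd1*, -3.27 for *Pdk4*, -1.47 for *Fbxo32*, -0.77 for *Trim63*, -0.92 for *Ankrd2* and -0.64 for *Csrp3*, so these directions were also found in *S1pr2fl/fl* spots with little keratinocyte RNA.

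**Figure D2:**
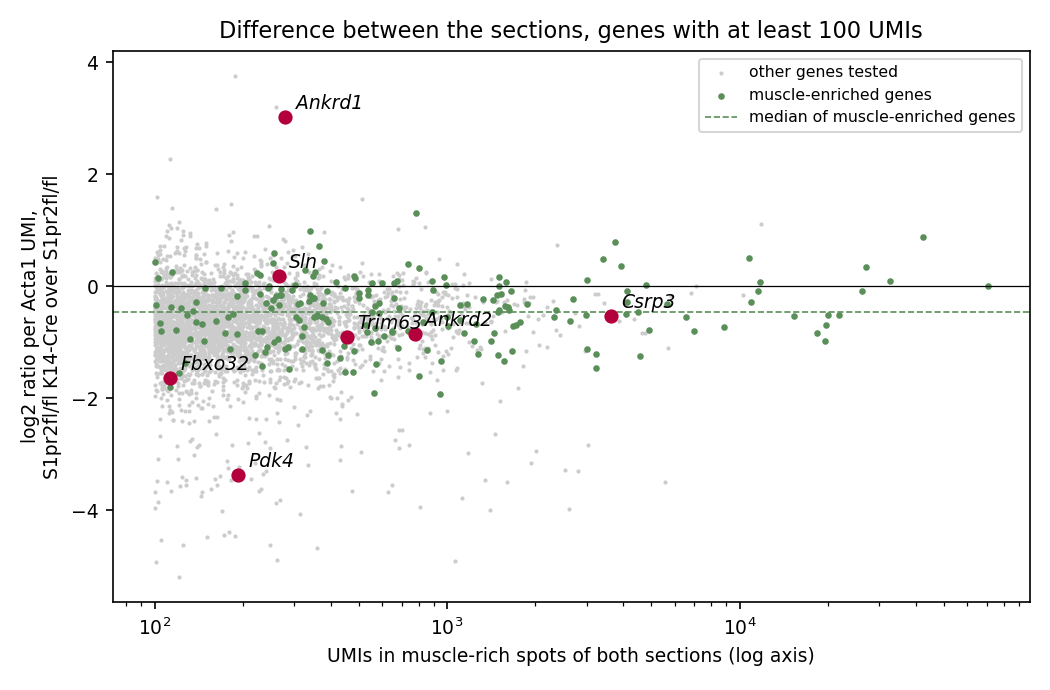
Log2 ratio per *Acta1* UMI, *S1pr2fl/fl K14-Cre* over *S1pr2fl/fl* (vertical), against the UMIs in the muscle-rich spots of both sections (horizontal, log axis), for the 3705 genes with at least 100 UMIs. Red points are the 7 genes, green points the 207 muscle-enriched genes with their median of -0.46 as a dashed line, and grey points the other genes. *Ankrd1* stands above and *Pdk4* below all green points, while *Ankrd2*, *Csrp3* and *Trim63* lie among them.

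The 2 genes at the ends of this range and the ubiquitin ligase *Trim63* are shown with the 250 bases before the transcript start, to set a promoter of the gene that was higher beside those of 2 that were lower. Promoters were matched for 5 of the 7 genes in RefSeq of mouse build GRCm38.p6, the patched form of the build mm10 that the submitters' processing notes name; *Fbxo32* and *Sln* are named only. Capitals mark the letters CATTCC (bound by TEAD factors), GTAAACA (FoxO), AGAACA (half-site of the glucocorticoid receptor) and CAGCTG (E-box of the myogenic factors), each searched on both strands.
Ankrd1, chr19:36119845-36120094, minus strand: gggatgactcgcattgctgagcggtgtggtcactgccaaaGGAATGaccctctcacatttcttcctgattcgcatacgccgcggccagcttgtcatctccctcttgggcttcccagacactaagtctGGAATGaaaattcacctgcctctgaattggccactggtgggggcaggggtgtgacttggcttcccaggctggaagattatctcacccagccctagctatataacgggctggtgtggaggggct
Trim63, chr4:134314870-134315119, plus strand: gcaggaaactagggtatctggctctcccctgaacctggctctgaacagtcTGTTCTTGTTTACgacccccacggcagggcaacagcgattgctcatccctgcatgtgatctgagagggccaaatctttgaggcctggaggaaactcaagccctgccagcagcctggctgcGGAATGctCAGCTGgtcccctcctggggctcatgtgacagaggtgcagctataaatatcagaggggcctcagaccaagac
Pdk4, chr6:5496279-5496528, minus strand: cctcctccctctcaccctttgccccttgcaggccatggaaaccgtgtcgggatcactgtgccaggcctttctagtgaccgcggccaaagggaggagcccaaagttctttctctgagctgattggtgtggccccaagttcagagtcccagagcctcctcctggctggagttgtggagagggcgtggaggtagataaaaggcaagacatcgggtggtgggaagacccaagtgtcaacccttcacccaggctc
The *Ankrd1* window held GGAATG at 210 to 205 and at 123 to 118 bases before the start. The *Trim63* window held TGTTCT at 200 to 195 bases, directly followed by TGTTTAC at 194 to 188, and then GGAATG at 80 to 75 and CAGCTG at 72 to 67. None of the 4 motifs was in the *Pdk4* window. Of the windows not printed, that of *Ankrd2* held none of the 4 either, and of 2 windows of *Csrp3* 1 held TGTTCT at 181 to 176 bases and the other held none. Of 32851 promoter windows of this length, 12.6% held the TEAD letters, 3.17% the FoxO letters, 16.1% the half-site and 13.0% the E-box. These matches describe letters and not binding, and their absence describes 1 window. The motifs and windows were chosen with the values of the genes known.

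*Ankrd1* (ENSMUSG00000024803, chromosome 19, 36111965 to 36119844) encodes a titin-binding ankyrin repeat protein that is sparse in resting limb muscle and is known to be induced by stretch, injury and denervation. It had 17 UMIs in the muscle-rich spots of *S1pr2fl/fl* and 263 in those of *S1pr2fl/fl K14-Cre*, or 0.701 (0.408 to 1.12) and 5.66 (4.99 to 6.38) per 1000 *Acta1* UMIs. The log2 ratio of *S1pr2fl/fl K14-Cre* over *S1pr2fl/fl* was 3.01 (2.31 to 3.82). The number of spots with the gene differed as well as the number of UMIs: 12 of 228 *S1pr2fl/fl* spots had at least 1 UMI, or 5.26% (Clopper-Pearson 2.75% to 9.01%), and 93 of 355 *S1pr2fl/fl K14-Cre* spots, or 26.2% (21.7% to 31.1%). With depth made equal by random thinning to 1000 UMIs (183 and 332 spots were deep enough), the shares were 3.28% and 19.0%. The highest spot held 5 UMIs in *S1pr2fl/fl* and 14 in *S1pr2fl/fl K14-Cre*. In *S1pr2fl/fl K14-Cre* the 10 spots with the most *Ankrd1* held 33.1% of its UMIs, against 18.4% for *Csrp3* and 13.9% for *Acta1*. This share depends on a gene's number of UMIs, which was far larger for *Csrp3* and *Acta1*. In that section it was 25.8% for *Trim63* (229 UMIs), 31.9% for *Sln* (182 UMIs) and 62.8% for *Fbxo32* (43 UMIs). The share of *Ankrd1* was thus close to that of *Sln*.

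*Ankrd2* (ENSMUSG00000025172, chromosome 19, 42035917 to 42045111) encodes the related ankyrin repeat protein of slow and oxidative fibers. Its 378 and 399 UMIs gave 15.6 (14.05 to 17.2) per 1000 *Acta1* UMIs in *S1pr2fl/fl* and 8.58 (7.76 to 9.47) in *S1pr2fl/fl K14-Cre*, a log2 ratio of -0.86 (-1.07 to -0.65). By CPM the ratio was smaller, -0.27 (-0.48 to -0.06). *Ankrd2* thus lay on the other side of 0 from *Ankrd1* on both scales, although both encode members of 1 protein family. Spots with at least 1 UMI made up 49.1% and 45.4% of the muscle-rich spots.

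*Csrp3* (ENSMUSG00000030470, chromosome 7, 48830398 to 48848051) encodes muscle LIM protein, which is known to be more abundant in slow fibers. It had the most UMIs of the 7 genes, 1561 in *S1pr2fl/fl* and 2060 in *S1pr2fl/fl K14-Cre*, and was found in 77.2% and 84.2% of muscle-rich spots. The level per 1000 *Acta1* UMIs was 64.3 (61.2 to 67.6) in *S1pr2fl/fl* and 44.3 (42.4 to 46.3) in *S1pr2fl/fl K14-Cre*, a log2 ratio of -0.54 (-0.64 to -0.44). By CPM the sections did not differ beyond counting error, with 1795 and 1861 and a log2 ratio of 0.05 (-0.04 to 0.15), so the direction for *Csrp3* rests on the scale.

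The ubiquitin ligases *Trim63* (ENSMUSG00000028834, chromosome 4, 134315120 to 134329629) and *Fbxo32* (ENSMUSG00000022358, chromosome 15, 58175879 to 58214892), which are known to be induced together in atrophying muscle, were both lower in *S1pr2fl/fl K14-Cre*. *Trim63* had 225 UMIs in *S1pr2fl/fl* and 229 in *S1pr2fl/fl K14-Cre*, or 9.27 (8.10 to 10.6) and 4.93 (4.31 to 5.61) per 1000 *Acta1* UMIs. The log2 ratio of *Trim63* was -0.91 (-1.19 to -0.64) per *Acta1* and -0.32 (-0.59 to -0.05) by CPM. *Fbxo32* was the gene with the fewest UMIs in both sections together, 70 in *S1pr2fl/fl* and 43 in *S1pr2fl/fl K14-Cre*, or 2.88 (2.25 to 3.64) and 0.925 (0.669 to 1.25) per 1000 *Acta1* UMIs. Its log2 ratio was -1.64 (-2.22 to -1.07) per *Acta1* and -1.05 (-1.63 to -0.48) by CPM. At least 1 UMI of *Fbxo32* was found in 19.3% of *S1pr2fl/fl* and 7.04% of *S1pr2fl/fl K14-Cre* muscle-rich spots, and in 9.84% and 2.71% of spots thinned to 1000 UMIs, where its log2 ratio per *Acta1* was -3.07.

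*Sln* (ENSMUSG00000042045, chromosome 9, 53850251 to 53853849), which encodes the calcium pump inhibitor, had 84 UMIs in *S1pr2fl/fl* and 182 in *S1pr2fl/fl K14-Cre*, or 3.46 (2.76 to 4.29) and 3.91 (3.37 to 4.53) per 1000 *Acta1* UMIs. The log2 ratio was 0.18 (-0.20 to 0.57), and a difference per *Acta1* was not detectable at this depth. By CPM it was 0.77 (0.39 to 1.16). *Sln* was found in 24.6% and 26.2% of muscle-rich spots. Its direction also turned without the first of 4 segments of the muscle-rich spots along each section (-0.39) and in the spots with under 1% keratinocyte UMIs (-0.36), so no direction is given for *Sln*.

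*Pdk4* (ENSMUSG00000019577, chromosome 6, 5483351 to 5496278), the fuel switch kinase that is known to be induced by fasting and glucocorticoids, had 163 UMIs in *S1pr2fl/fl* and 30 in *S1pr2fl/fl K14-Cre*, or 6.72 (5.73 to 7.83) and 0.645 (0.435 to 0.921) per 1000 *Acta1* UMIs. The log2 ratio was -3.38 (-3.99 to -2.81) per *Acta1* and -2.79 (-3.40 to -2.22) by CPM. *Pdk4* was found in 92 of 228 spots of *S1pr2fl/fl*, or 40.4% (33.9% to 47.0%), and in 17 of 355 of *S1pr2fl/fl K14-Cre*, or 4.79% (2.81% to 7.56%), and in 19.7% and 2.71% of spots thinned to 1000 UMIs. The 10 spots with the most *Pdk4* held 27.6% of its UMIs in *S1pr2fl/fl* and 76.7% in *S1pr2fl/fl K14-Cre*. With 30 UMIs in 17 spots the second share is high by the low count alone, so the sections are not compared by it. For comparison, a gene of the 1226 olfactory, vomeronasal, taste and trace amine receptors, which muscle should hardly express, had a mean of 1.46 UMIs in the muscle-rich spots of *S1pr2fl/fl* and 2.64 in those of *S1pr2fl/fl K14-Cre*, below the count of each of the 7 genes.

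**Figure D3:**
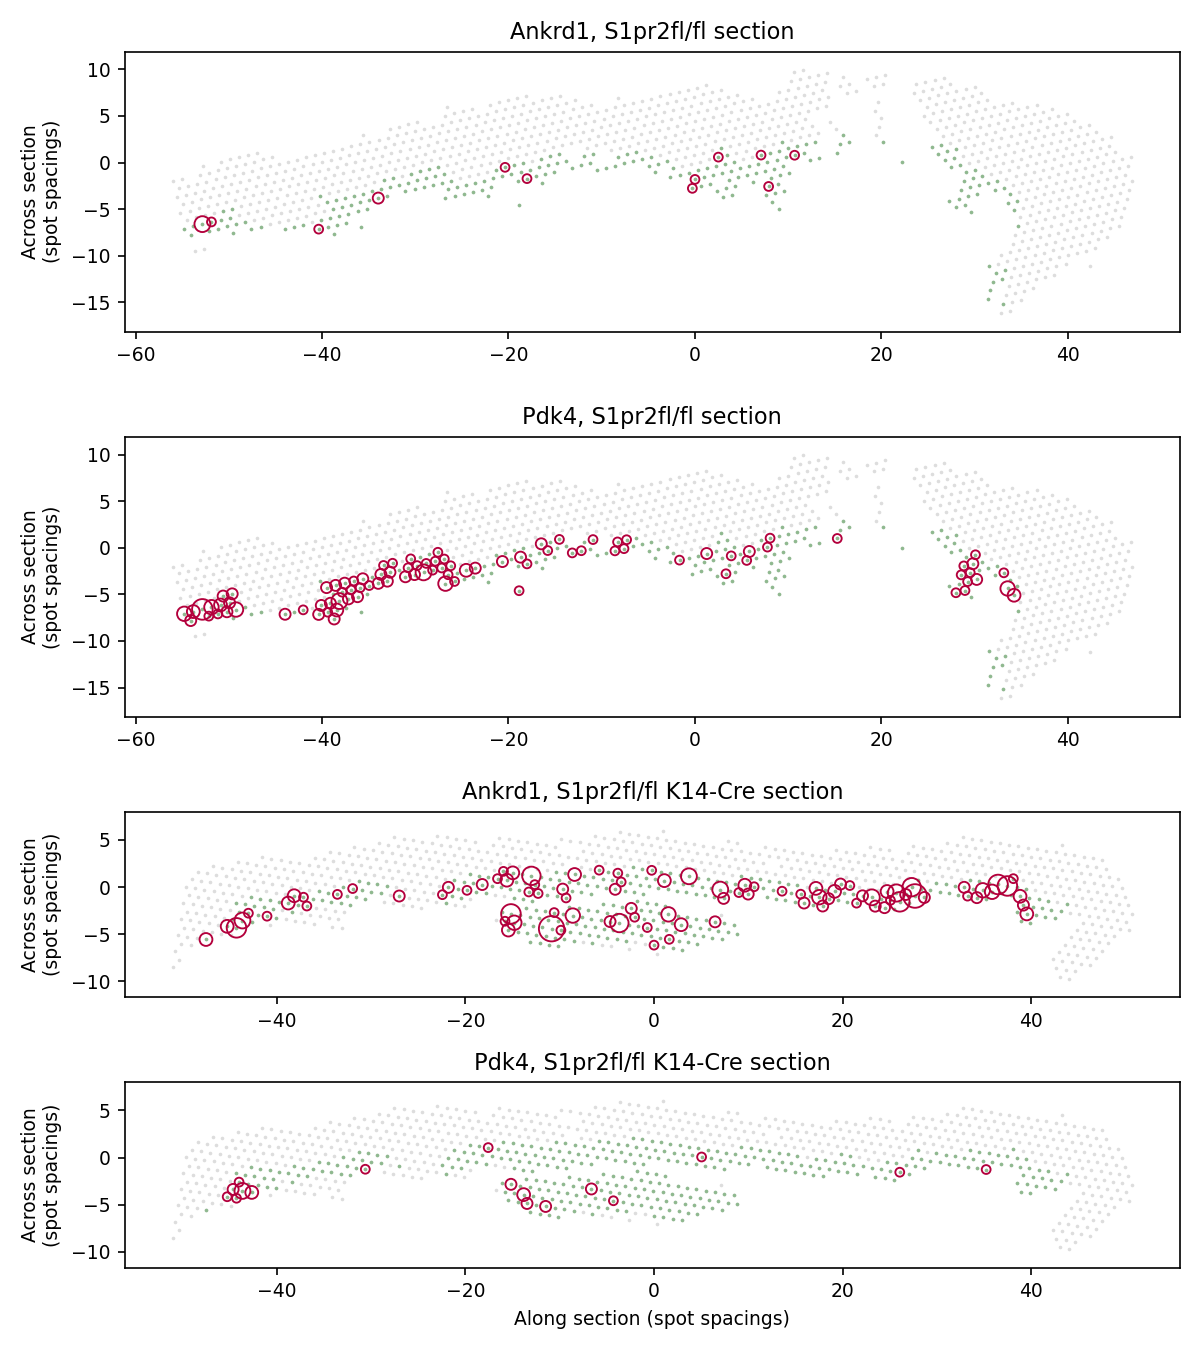
Position of *Ankrd1* and *Pdk4* in the section of *S1pr2fl/fl* (upper panels) and of *S1pr2fl/fl K14-Cre* (lower panels), in spot spacings along and across the section, for spots with at least 500 UMIs. Green points are muscle-rich spots, grey points the other spots, and red circles muscle-rich spots with at least 1 UMI of the gene, with an area that grows with its UMIs. *Ankrd1* circles lie along the whole sheet in *S1pr2fl/fl K14-Cre* (93 spots) and at 12 spots in *S1pr2fl/fl*, whereas *Pdk4* circles are frequent in *S1pr2fl/fl* (92 spots) and few in *S1pr2fl/fl K14-Cre* (17 spots). In the *S1pr2fl/fl* panels 1 spot lies outside the frame.

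The muscle-rich spots of each section were divided along the section into 4 segments with equal numbers of spots, to see whether the differences held along the sheet. Segments of 1 section share a mouse and a library, and they are not replicates. *Ankrd1* ranged from 0.242 to 1.45 per 1000 *Acta1* UMIs over the segments of *S1pr2fl/fl* and from 3.53 to 14.002 over those of *S1pr2fl/fl K14-Cre*, so the segments did not overlap. The fourth segment of *S1pr2fl/fl K14-Cre* held 112 of its 263 UMIs, and without the fourth segment of both sections the log2 ratio was 2.43. *Pdk4* ranged from 2.89 to 9.11 in *S1pr2fl/fl* and from 0.120 to 1.40 in *S1pr2fl/fl K14-Cre*, and *Trim63* from 7.03 to 11.1 and from 2.50 to 6.14, again without overlap. By CPM the segments of *Trim63* did overlap, from 202 to 412 in *S1pr2fl/fl* and from 93.7 to 276 in *S1pr2fl/fl K14-Cre*, while those of *Ankrd1* and *Pdk4* did not. The share of all genes whose segments do not overlap was not counted, so the lack of overlap does not set these genes apart from others. Per *Acta1* the median of the 3705 genes itself had a log2 ratio of -0.66. The first segment of *S1pr2fl/fl K14-Cre* held 22 of its 30 *Pdk4* UMIs, and without the first segment of both sections the log2 ratio was -4.26. The segments of *Ankrd2*, *Csrp3*, *Fbxo32* and *Sln* overlapped between the sections. *Csrp3* ranged from 16.2 to 80.8 in *S1pr2fl/fl*, whereas in *S1pr2fl/fl K14-Cre* it stayed between 38.1 and 50.8. Likewise *Ankrd2* ranged from 4.27 to 19.2 in *S1pr2fl/fl* and from 7.13 to 10.2 in *S1pr2fl/fl K14-Cre*. In *S1pr2fl/fl* both were lowest in the fourth segment, which had 2340 *Acta1* UMIs against 10213 in the first.

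**Figure D4:**
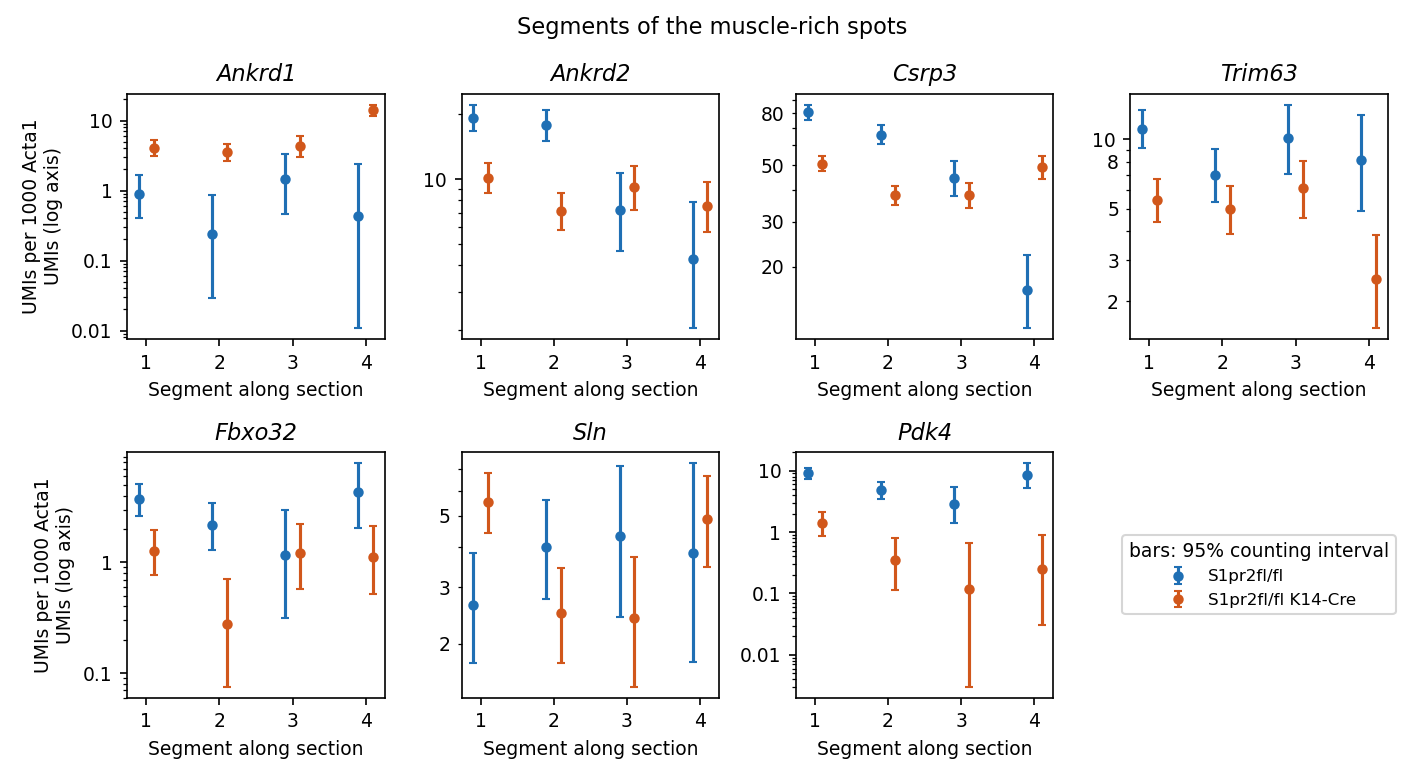
UMIs per 1000 *Acta1* UMIs (log axis) in the 4 segments of the muscle-rich spots along each section, 1 panel per gene, for *S1pr2fl/fl* (blue) and *S1pr2fl/fl K14-Cre* (orange). Bars are exact Poisson 95% counting intervals. The points of the sections do not overlap for *Ankrd1*, *Trim63* and *Pdk4* (2.89 to 9.11 against 0.120 to 1.40 for *Pdk4*) and overlap for the other genes. By CPM, which is not drawn, those of *Trim63* overlap too. The share of all genes without overlap was not counted.

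Next, the genes were compared between muscle of different kinds within each section. The muscle-rich spots were ranked by the UMIs of 8 genes of oxidative fibers (*Myh7*, *Myh2*, *Tnnc1*, *Tnni1*, *Tnnt1*, *Myl2*, *Myl3*, *Mb*) over those of the 15 muscle genes and divided into 3 tiers of equal size, and the highest tier was set against the lowest. *Ankrd2* was 2.83-fold higher in the oxidative tier of *S1pr2fl/fl*, with 22.9 against 8.08 per 1000 *Acta1* UMIs and a 95% interval of the log2 ratio from 1.02 to 2.01. In *S1pr2fl/fl K14-Cre* it was 1.39-fold higher, 9.54 against 6.85, with a log2 ratio of 0.48 (0.08 to 0.89). *Csrp3* was 2.65-fold higher in *S1pr2fl/fl* (89.8 against 33.9) and 1.78-fold higher in *S1pr2fl/fl K14-Cre* (56.8 against 31.9). Both sarcomere genes were thus higher in the more oxidative tier of both sections. The lowest tiers include 35 spots of *S1pr2fl/fl* and 79 of *S1pr2fl/fl K14-Cre* without a UMI of the oxidative list. They also had fewer *Acta1* UMIs than the highest tiers, 5197 against 9798 and 10799 against 18022. The part of depth in the ranking was not tested. In the lowest tiers, the 2 sections had close levels of *Csrp3* (33.9 and 31.9) and *Ankrd2* (8.08 and 6.85), and the sections lay farther apart in the highest tiers. The oxidative list itself made up 3.21% of the muscle gene UMIs in the highest tier of *S1pr2fl/fl* and 2.96% in that of the other section. In the lowest tiers it made up 0.508% and 0.166%, so the close levels there are from tiers with unlike shares of these genes.

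*Ankrd1* lay the other way in *S1pr2fl/fl K14-Cre*, with 7.41 per 1000 *Acta1* UMIs in the lowest and 5.27 in the highest oxidative tier, a log2 ratio of -0.49 (-0.94 to -0.04). The ratio was smaller with a muscle share of 2% (-0.22) or 10% (-0.36) and by CPM (-0.33). In *S1pr2fl/fl* its 1 and 6 UMIs in these tiers were too few to give an order. *Pdk4* had 28 and 77 UMIs in the lowest and highest tiers of *S1pr2fl/fl*, a log2 ratio of 0.54 (-0.10 to 1.23) that turned to -0.45 in spots of at least 2% muscle UMIs, and 2 and 19 in *S1pr2fl/fl K14-Cre*, a log2 ratio of 2.51 (0.46 to 5.66). The intervals of *Trim63*, *Fbxo32* and *Sln* included 0 in both sections, with log2 ratios between -0.26 and 0.34.

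**Figure D5:**
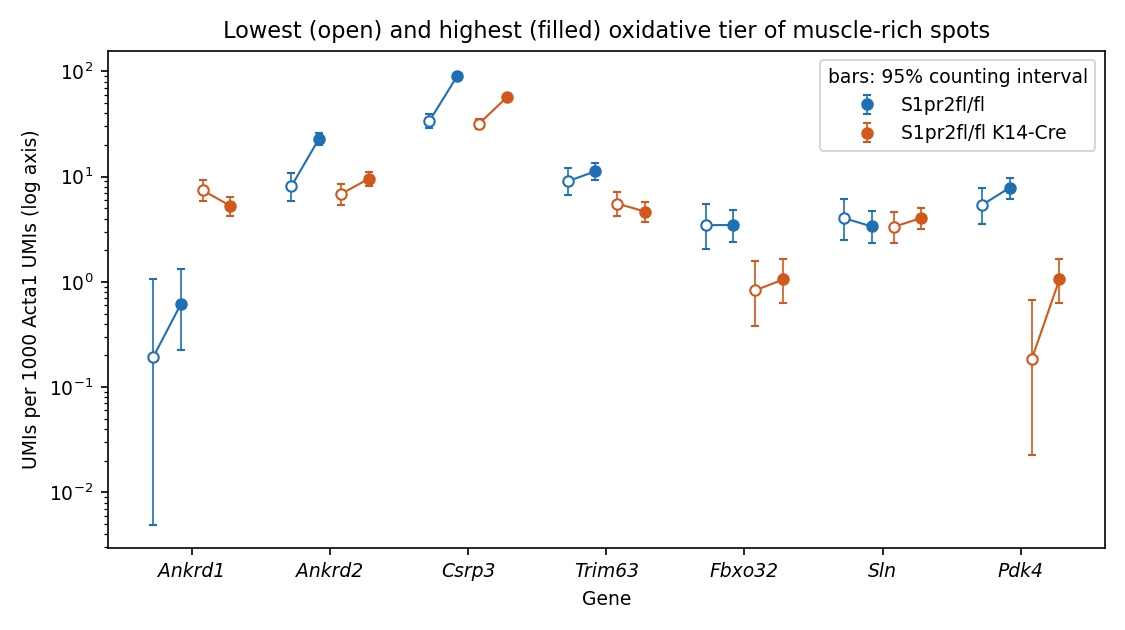
UMIs per 1000 *Acta1* UMIs (log axis) in the lowest (open points) and highest (filled points) tier of muscle-rich spots by the share of oxidative fiber genes, for *S1pr2fl/fl* (blue) and *S1pr2fl/fl K14-Cre* (orange). Bars are exact Poisson 95% counting intervals. *Ankrd2* and *Csrp3* are higher in the oxidative tier of both sections. *Ankrd1* of *S1pr2fl/fl K14-Cre* is lower there (5.27 against 7.41), with a log2 ratio whose interval nearly reaches 0 (-0.94 to -0.04).

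The same was done with 8 genes of developing and denervated muscle (*Myh3*, *Myh8*, *Myl4*, *Actc1*, *Tnnt2*, *Myog*, *Chrng*, *Chrna1*; 7 of them measured here), since 5 of the 6 of them with at least 30 UMIs were themselves at least 2-fold higher in *S1pr2fl/fl K14-Cre*. None of these UMIs was found in 184 of the 228 *S1pr2fl/fl* spots and 229 of the 355 *S1pr2fl/fl K14-Cre* spots, so the lowest tiers are an arbitrary part of the spots without them. In *S1pr2fl/fl* the highest tier of 76 spots also holds spots without them, placed there by their order in the data. The values of *S1pr2fl/fl* by these tiers are therefore in part a comparison among spots without these UMIs. In *S1pr2fl/fl K14-Cre* these genes made up 0.0638% of the UMIs of muscle-rich spots and 0.0522% of those of the other spots, which were not ranked. The tiers therefore leave out much of this RNA, and its relation to *Ankrd1* in the other spots was not tested. The interval of *Ankrd1* in *S1pr2fl/fl K14-Cre* included 0, although *Ankrd1* and these genes were both higher in that section: it had 6.85 per 1000 *Acta1* UMIs in the lowest and 5.81 in the highest tier, a log2 ratio of -0.24 (-0.65 to 0.18). With spots of at least 10% muscle UMIs the log2 ratio was -0.99, outside that interval. In *S1pr2fl/fl* its 1 and 9 UMIs gave 2.83 (-0.03 to 8.28), too few to give an order. *Ankrd2* had -0.47 (-0.82 to -0.12) and *Csrp3* 0.21 (0.05 to 0.38) in *S1pr2fl/fl K14-Cre*, and *Trim63* -0.49 (-0.97 to -0.02) in *S1pr2fl/fl*. The intervals of these 3 genes in the respective other section included 0. *Sln* was higher in the highest tier of both sections, by 1.76-fold in *S1pr2fl/fl* (5.08 against 2.88, log2 ratio 0.82, 0.05 to 1.64) and 1.58-fold in *S1pr2fl/fl K14-Cre* (4.77 against 3.03, log2 ratio 0.66, 0.10 to 1.24). *Pdk4* of *S1pr2fl/fl K14-Cre* had 3 UMIs in the lowest and 19 in the highest tier, a log2 ratio of 1.98 (0.22 to 4.38). In the 184 and 229 spots without a UMI of these genes, the difference between the sections was 3.21 for *Ankrd1* and -4.75 for *Pdk4*, on the log2 scale per *Acta1*.

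Spots that were not muscle-rich also held UMIs of these genes, and the ratio to *Acta1* there separates the genes. *Ankrd2*, *Csrp3* and *Trim63* had nearly the same ratio outside as inside: in *S1pr2fl/fl* 15.7 and 15.6 per 1000 *Acta1* UMIs for *Ankrd2*, 58.2 and 64.3 for *Csrp3*, and 9.59 and 9.27 for *Trim63*. In *S1pr2fl/fl K14-Cre* the log2 ratio of outside over inside lay between -0.07 and 0.30 for these 3 genes. *Fbxo32* was higher outside, with 10.7 against 2.88 in *S1pr2fl/fl* and 5.15 against 0.925 in *S1pr2fl/fl K14-Cre*, and 46.7% and 52.4% of its UMIs lay in muscle-rich spots. *Pdk4* was also higher outside, with 12.8 against 6.72 and 3.44 against 0.645. *Sln* gave 7.86 against 3.46 and 7.93 against 3.91, and *Ankrd1* gave 3.20 against 0.701 and 10.4 against 5.66. These 4 genes thus had UMIs away from muscle-rich spots in excess of their ratio to *Acta1* within them. A receptor gene had a mean of 10.3 UMIs in these other spots of *S1pr2fl/fl* and 14.4 in those of *S1pr2fl/fl K14-Cre*. The lowest counts of the 4 genes there were 24 UMIs for *Ankrd1* in *S1pr2fl/fl* and 26 for *Pdk4* in *S1pr2fl/fl K14-Cre*. This background was not taken off the ratios, and its part in the excess was not tested.

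In keratinocyte-rich spots (at least 5% of UMIs from 10 keratinocyte genes), *Fbxo32* had 9.79 CPM in *S1pr2fl/fl*, and *Pdk4* had 8.76 CPM in *S1pr2fl/fl* and 22.1 CPM (7.17 to 51.5) in *S1pr2fl/fl K14-Cre*. The last value rested on 5 UMIs and overlapped the 27.1 CPM (18.3 to 38.7) of the muscle-rich spots of that section. In *S1pr2fl/fl* the muscle-rich spots had 187 CPM (160 to 218) of *Pdk4*, above its level in every other region examined. In adipocyte-rich spots (at least 1% of UMIs from 7 adipocyte genes), *Pdk4* had 48.4 CPM (23.2 to 89.1) in *S1pr2fl/fl* and 3.77 CPM (0.095 to 21.0) in *S1pr2fl/fl K14-Cre*, with 10 and 1 UMIs. *Pdk4* was thus lower in *S1pr2fl/fl K14-Cre* in these spots too, whose 50 and 88 spots still had 1.51% and 2.43% of their UMIs from the muscle genes. In keratinocyte-rich spots its CPM was instead the higher in *S1pr2fl/fl K14-Cre*, with overlapping intervals. In fibroblast-rich spots (at least 3% of UMIs from 7 fibroblast genes), *Ankrd1* had 6.57 CPM (1.79 to 16.8) in *S1pr2fl/fl* and 107 CPM (80.6 to 140) in *S1pr2fl/fl K14-Cre*. The muscle genes made up 0.546% and 2.08% of the UMIs of these spots, and per 1000 *Acta1* UMIs *Ankrd1* was 4.15 (1.13 to 10.6) and 12.2 (9.18 to 15.9). *Pdk4* had 29.6 CPM (17.5 to 46.7) in the fibroblast-rich spots of *S1pr2fl/fl* and 19.9 CPM (9.53 to 36.5) in those of *S1pr2fl/fl K14-Cre*, with overlapping intervals.

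Other genes of the same pathways were read from lists, with genes of at least 30 UMIs in the muscle-rich spots and log2 ratios per *Acta1*, for which the median of all 8701 such genes was -0.71, with 1.1% of them at least 2-fold higher and 32.9% at least 2-fold lower. Of 12 genes of the Z-disc and titin stress response, 0 were at least 2-fold higher and 5 were at least 2-fold lower, with a median of -0.71. *Ankrd23*, another member of the ankyrin repeat family of *Ankrd1* and *Ankrd2*, had 431 and 566 UMIs and a log2 ratio of -0.54 (-0.73 to -0.36). The genes of this list with the most UMIs were *Fhl1*, a LIM domain protein gene, at -0.78 (-0.86 to -0.69), the chaperone gene *Cryab* at -0.50 (-0.59 to -0.41), *Ldb3*, which encodes a Z-disc protein, at -1.47 (-1.57 to -1.36) and the chaperone gene *Hspb7* at -1.12 (-1.22 to -1.01). The highest ratio of the list was that of *Flnc* (filamin C), 0.07 (-0.09 to 0.22), against 3.01 for *Ankrd1*.

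Of 15 genes for ubiquitin ligases, the proteasome and autophagy, 4 were at least 2-fold lower and 0 at least 2-fold higher, with a median of -0.46. *Trim54*, a close relative of *Trim63*, had -0.46 (-0.71 to -0.21), and *Fbxo40*, a muscle ubiquitin ligase gene, had -0.26 (-0.58 to 0.07). Of the genes with the most UMIs, *Ctsl*, a lysosomal protease gene, had -1.43 (-1.57 to -1.29), *Map1lc3a*, which encodes an autophagosome protein, -0.44 (-0.63 to -0.26) and the ubiquitin ligase gene *Nedd4* -0.14 (-0.33 to 0.05). Of 8 genes for the calcium pump and its regulators, 0 were at least 2-fold higher and 1 was at least 2-fold lower, with a median of -0.05. *Casq1*, which encodes the calcium store protein of fast fibers, had 0.78 (0.67 to 0.90), the calcium release channel gene *Ryr1* -0.43 (-0.55 to -0.30), and the calcium pump gene of slow fibers and other cells, *Atp2a2*, -0.38 (-0.59 to -0.18). *Ctsl*, *Map1lc3a*, *Nedd4* and *Atp2a2* were not muscle-enriched. In the section where each was lower, *Ctsl* was at 0.26-fold and *Atp2a2* at 0.28-fold in muscle-rich against other spots. The part of other cells in these 4 values was not tested.

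Of 14 genes of pyruvate dehydrogenase control and fuel use, 0 were at least 2-fold higher and 5 were at least 2-fold lower, with a median of -0.84. *Pdk2*, which encodes another pyruvate dehydrogenase kinase, had 299 and 311 UMIs and a log2 ratio of -0.88 (-1.12 to -0.65). *Pdha1*, a subunit of the enzyme that these kinases inhibit, had -0.19 (-0.37 to -0.01). *Cd36*, a fatty acid transporter gene, had -0.50 (-0.67 to -0.32), and *Acadl*, which encodes an enzyme of fatty acid oxidation, -0.89 (-1.13 to -0.65). The ratio of *Pdk4*, -3.38, was below that of each gene of this list, the lowest of which was *Angptl4*, an inhibitor of lipoprotein lipase, at -2.47 (-3.75 to -1.33) with 26 and 9 UMIs. Of 15 targets of glucocorticoids or FoxO factors and the factors themselves, 6 were at least 2-fold lower and 0 at least 2-fold higher, with a median of -0.84. The metallothionein genes *Mt1* and *Mt2* had -1.15 (-1.29 to -1.02) and -1.12 (-1.28 to -0.96), the cell cycle inhibitor gene *Cdkn1a* -0.50 (-0.78 to -0.22) and *Tsc22d3*, a classic glucocorticoid target, -0.77 (-1.13 to -0.41). These 4 genes, *Angptl4*, *Pdha1*, *Cd36* and *Acadl* were not muscle-enriched. The part of the keratinocyte RNA of *S1pr2fl/fl*, or of RNA of other cells, in their values was not tested. Of 8 genes known for their response to denervation, 2 were at least 2-fold higher and 0 at least 2-fold lower, with a median of 0.70. *Ncam1*, an adhesion molecule gene, had 2.08 (1.08 to 3.27, 9 and 73 UMIs), *Myog* (myogenin) 1.80 (0.78 to 2.996, 9 and 60 UMIs), the acetylcholine receptor gene *Chrna1* 0.99 (0.18 to 1.89) and the deacetylase gene *Hdac4* -0.72 (-1.26 to -0.18). The ratio of *Ankrd1* was above that of each gene of this list, and the ubiquitin ligases *Trim63* and *Fbxo32*, which denervation is also known to induce, were lower. A part of denervation in these values was not tested. *Myog* and *Chrna1* also belong to the developmental list, so the 2 lists are not separate. None of *Ncam1*, *Myog*, *Chrna1* and *Hdac4* was muscle-enriched.

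For the 3 genes with at least 200 UMIs in the muscle-rich spots of each section, the genes with the most similar course along the sheet were found from CPM in 10 runs of spots per section, by the mean of the Spearman correlations of both sections over 512 genes. The runs share a library and differ in depth and in the share of muscle, and the correlations are a description. With 10 runs, the best 3 of so many genes can reach high values by the picking alone, so no relation is drawn from them. *Ankrd2* was most like *Ndufc2* (0.73), *Ywhaz* (0.72) and *Myh2* (0.70), *Myh2* being the myosin of fast oxidative fibers and *Ndufc2* a subunit of respiratory complex I. *Csrp3* was most like *Lmod2* (0.68), *Lmcd1* (0.64) and *Flnc* (0.63), and *Trim63* like *Anp32a* (0.62), *Tgm2* (0.55) and *Syncrip* (0.55). Some of these means joined unlike sections. *Trim63* with *Tgm2* had 0.93 in *S1pr2fl/fl* and 0.16 in *S1pr2fl/fl K14-Cre*, and *Ankrd2* with *Ywhaz* had 0.95 and 0.49. *Ankrd1* had enough UMIs in *S1pr2fl/fl K14-Cre* alone, where over its 10 runs and 748 genes it was most like *Apobec2* (0.85), *Atp5b* (0.82) and *Atp5e* (0.79). The remaining genes had too few UMIs.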

How the data were processed

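Spatial transcriptomics of 2 skin sections, 1 per genotype, was analysed. The values deposited by the authors are raw counts of UMIs for each gene in each spot under tissue, made with Space Ranger 3.0.0 per the file headers. The submitters' processing notes name mm10 and Space Ranger, and the methods name Partek Flow for images and reads. The probe set is not given in the sources used here. The methods state fewer spots per section than the files hold, and all spots of the files were used. The sections shared 357 barcodes, which are positions of the same array design.

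Counts were summed over muscle-rich spots and divided by *Acta1* UMIs or by all UMIs (CPM), without filters on genes other than the stated minimum counts. Intervals were exact (Poisson for levels, Clopper-Pearson for shares, conditional for ratios, 95%) and cover counting error only. Only those for ratios per *Acta1* were tested on simulated data. The simulated counts were independent Poisson counts, as the interval assumes, so the uneven spread of UMIs over spots was not part of that test. A pseudocount of 0.5 was used where 1 section had 0 UMIs. Doublets do not apply to spots. Python 3.11.15, scipy 1.17.1, scanpy 1.11.5 and edgeR 4.0.16 (for the TMM factor) were used. The 7 genes, the gene lists and the comparisons were chosen with earlier results of these data known. The gene lists other than the markers were written after the files had been opened, and the region limits, the muscle-enriched genes and the promoter motifs after values had been seen. Named besides the 7 genes are genes of these lists, by the most UMIs or as relatives of the 7, and the most similar genes along the sheet. A gene that this rule would name is not reported here. Alternatives were the muscle share (2% or 10%), a minimum of 50 UMIs per spot, Leiden clusters, other denominators, thinning, removal of the receptor background, connected spots, and leaving out developmental spots or segments.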

Additional observations from a re-analysis of the deposited data

How the results depend on the processing

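Of 18 alternatives for each gene, *Ankrd1* moved by less than its counting interval in all 18, from 2.43 to 3.65 on the log2 scale per *Acta1*, and *Ankrd2*, *Trim63*, *Fbxo32* and *Pdk4* stayed below 0 in all 18. Leaving out 1 segment at a time does not show that *Ankrd2* was the higher in *S1pr2fl/fl K14-Cre* in 7 of 16 pairs of segments. Scaling by all UMIs gave -0.27 for *Ankrd2*, 0.052 for *Csrp3*, -0.32 for *Trim63*, -1.05 for *Fbxo32*, 0.77 for *Sln* and -2.79 for *Pdk4*, and with the TMM factor these were -0.22, 0.10, -0.27, -1.002, 0.82 and -2.74. Scaling by the 15 muscle genes gave -0.57 for *Ankrd2*, -0.24 for *Csrp3* and -0.62 for *Trim63*, and *Ckm* gave -0.64 for *Csrp3*. Thinning to 1000 UMIs per spot gave -0.35 for *Ankrd2*, -0.35 for *Csrp3*, 0.64 for *Sln* and -3.07 for *Fbxo32*, whose counts are then very low. Leiden clusters gave -1.37 for *Trim63* and -0.28 for *Sln*, in 316 and 194 spots. *Pdk4* was -4.75 without the highest tier of developmental share over both sections, which left the spots with none of these UMIs, and -4.26 without segment 1. Leaving out a segment gave -0.64 for *Ankrd2* (segment 2), -0.35, -0.43 and -0.68 for *Csrp3* (segments 1, 2 and 4) and -0.39 for *Sln* (segment 1). Of the alternatives added after seeing the data, spots with under 1% keratinocyte UMIs gave -0.64 for *Csrp3* and -0.36 for *Sln*, and the median of the muscle-enriched genes as scale gave -0.40 for *Ankrd2*, -0.075 for *Csrp3*, -0.45 for *Trim63* and 0.64 for *Sln*. The share of genes at least 2-fold higher was 1.1% with a minimum of 30 UMIs and 2.73% by CPM, and the share at least 2-fold lower was 7.42% by CPM and 17.4% among muscle-enriched genes. For the tiers within a section, 83 alternatives were run, of which 5 moved beyond the counting interval: *Ankrd1* by developmental tier gave -0.15 in *S1pr2fl/fl* with a muscle share of 2% and -0.99 in *S1pr2fl/fl K14-Cre* with 10%, *Ankrd2* by developmental tier gave 0.35 in *S1pr2fl/fl* with 10%, *Pdk4* by oxidative tier gave -0.45 in *S1pr2fl/fl* with 2%, and *Csrp3* by oxidative tier gave 1.06 in *S1pr2fl/fl K14-Cre* with 10%. No paired analysis was possible because each genotype has 1 section. Depth limits *Ankrd1* in *S1pr2fl/fl* (17 UMIs) and *Pdk4* and *Fbxo32* in *S1pr2fl/fl K14-Cre* (30 and 43 UMIs).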
